A study of Mus musculus with 36 samples.

Results

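The 10 genes described here encode transcription factors that mark hypothalamic cell populations: Nkx2-1, Sim1, Otp, Nr5a1, Six3, Six6, Hmx2, Hmx3, Rax and Isl1. They were chosen by name, with earlier results of these data known. Each was found as 1 row among the 38924 genes of a read count table covering 36 mouse brain libraries. RNA came from hypothalamus, cortex and brainstem of C57BL/6 mice of 4 genotypes, with 3 libraries for each combination. The genotypes were Hcrt/Orexin-ataxin-3 transgenic mice, in which expression of ataxin-3 ablates the hypocretin (orexin, HCRT) neurons, the wild type of that line, Hcrt/Orexin knockout mice, which lack the peptide gene, and the wild type of that second line. Every group thus shares the C57BL/6 strain, and each model has a wild type of its own. The sources used here give no age or time of day, and they do not say whether the 3 libraries of a group came from 3 animals, so a p-value here speaks only to variation among the libraries, part of which may be technical.

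These factors are best known from development, when regional combinations of homeodomain, bHLH-PAS and nuclear receptor proteins divide the embryonic forebrain floor into future nuclei. Several stay on in adult neurons or in tanycytes, the radial glia-like cells lining the third ventricle, so their mRNA serves as an address label for a piece of hypothalamic tissue. Hypocretin neurons are a small population of the lateral hypothalamus, so the comparisons below ask whether losing those cells, or only their peptide, was accompanied by a change in the mRNA of the wider set of identity factors.

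Sequencing depth ranged from 21915540 to 47057537 gene-assigned reads a library, and levels are given as CPM (read counts scaled to library size), computed across all 36 libraries. The targeted gene followed the labels in the hypothalamus: Hcrt lay between 51.4 and 196.1 CPM in the 6 wild types, between 2.07 and 2.46 CPM in the ataxin-3 transgenic libraries, and between 0.996 and 1.14 CPM in the knockout libraries. In brainstem the order was the opposite for the knockout: its libraries held 27 to 42 Hcrt reads and their wild types 0 to 5 (log2 difference 3.91, SE 0.49, edgeR adjusted p = 0.00171). In 3 hypothalamic libraries, replicates 1 and 3 of the ataxin-3 wild type and replicate 3 of the knockout line's wild type, growth hormone mRNA (Gh) reached 12200 to 23500 CPM before scaling, against at most 24.8 CPM in the other 9. One further hypothalamic library, ataxin-3 transgenic replicate 1, carried the olfactory neuron transcript Omp at 667 CPM. In cortex the knockout libraries held 9 to 17 Hcrt reads, and their wild types 1, 30 and 1 in replicates 1 to 3. The identity factors were not raised in the wild-type library with 30 Hcrt reads (0 reads of Sim1, 3 of Otp and 5 of Nkx2-1).

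All 10 factors were far more abundant in hypothalamus than in cortex or brainstem. Among the 6 wild-type libraries of each area, 10 of 10 members were higher in hypothalamus than in cortex and 10 of 10 were higher than in brainstem (edgeR quasi-likelihood test, Benjamini-Hochberg adjusted p between 3.76e-16 and 5.92e-05). For scale, these areas differ at most genes: 78.7% of 17440 tested genes were called between hypothalamus and cortex (40.4% higher and 38.3% lower in hypothalamus), and 71.5% between hypothalamus and brainstem (38.0% higher and 33.5% lower). The members' median log2 difference was 8.54 over cortex and 6.99 over brainstem, where the medians of all tested genes were 0.03 and 0.03. Setting members with 0 reads in the other area at the lowest fold that 3 reads would allow gave a median of 7.62 over cortex and left 6.99 over brainstem. Bulk tissue cannot separate more cells of a type from more mRNA per cell.

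Library by library, the separation had no exceptions. The lowest of the 12 hypothalamic libraries lay above the highest of the 12 cortical and of the 12 brainstem libraries for all 10 members, a pattern shared by 22.7% and 19.2% of tested genes. A stricter description, a moderated log2 CPM more than 4 higher than in both other areas, was met by 47 of 17440 genes (0.269%), 6 of which were members: Nkx2-1, Sim1, Nr5a1, Six3, Six6 and Rax. The other 4 members, Otp, Hmx2, Hmx3 and Isl1, exceeded that gap over cortex only, and brainstem also contained their mRNA.

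**Figure D1:**
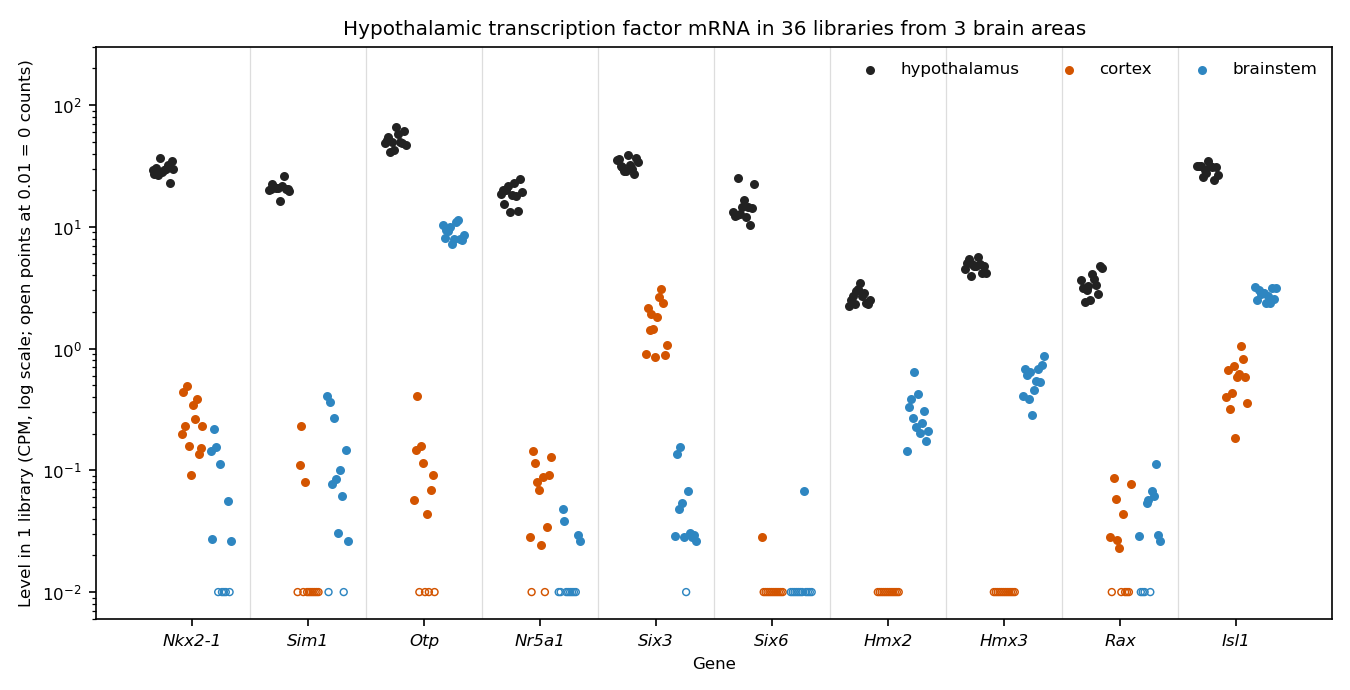
Level of each gene in every library (CPM, log axis), with hypothalamus in black, cortex in orange and brainstem in blue, 12 libraries each. Open points drawn at 0.01 are libraries with 0 reads. The black points lie above all others for all 10 genes. In brainstem the points of Otp, Isl1 and Hmx3 lie above those of Nkx2-1, Nr5a1 and Six6, and the points of Hmx2 overlap those of Nkx2-1.

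Nkx2-1, a homeodomain factor needed for formation of the ventral hypothalamus, had a lowest, median and highest level of 22.7, 29.4 and 37.1 CPM across the 12 hypothalamic libraries. Its gene lies on chromosome 12 (GRCm38 56531958 to 56536908, minus strand). In wild types it averaged 29.85 CPM in hypothalamus, 0.211 CPM in cortex and 0.0586 CPM in brainstem, log2 differences of 7.17 (SE 0.24) and 9.03 (SE 0.30). Six3 and Six6 are related homeodomain factors of the anterior forebrain, eye and hypothalamus. Six3 (chromosome 17, 85613608 to 85629302, plus strand) ranged from 27.0 to 39.1 CPM in hypothalamus with a median of 32.1 CPM. It kept 4.57% of its hypothalamic level in cortex, the highest cortical remainder among the members, but only 0.172% in brainstem. Six6 (chromosome 12, 72939892 to 72944899, plus strand) ran from 10.4 to 25.15 CPM, median 13.7 CPM, and no read was assigned to it in the 6 wild-type cortical or the 6 wild-type brainstem libraries. At the depth of those libraries 0 reads allow up to 0.0139 and 0.01605 CPM, so hypothalamic Six6 was at least 1186-fold higher than in cortex and at least 1024-fold higher than in brainstem. These limits take 3 reads over the group as the floor and cover counting error only.

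Sim1 and Otp act together in forming the peptide neurons of the paraventricular and supraoptic nuclei. Otp (chromosome 13, 94875602 to 94885130, plus strand) gave 41.0, 49.9 and 65.9 CPM as its lowest, median and highest hypothalamic level. Sim1 (chromosome 10, 50894754 to 50989152, plus strand) gave 16.45, 20.6 and 25.9 CPM. Both were nearly absent from cortex, where the 6 wild types together held 16 Otp reads and 3 Sim1 reads. The Sim1 ratio of hypothalamus to cortex was 1480 (95% counting interval 506.2 to 7181). In brainstem the pair parted: Otp remained at 17.4% of its hypothalamic level, with every library between 7.22 and 11.3 CPM, whereas Sim1 stood at 0.491%.

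Nr5a1, also called SF-1, is a nuclear receptor that within the brain marks the ventromedial nucleus. Its hypothalamic levels were 13.2, 19.0 and 24.9 CPM (lowest, median, highest; chromosome 2, 38692656 to 38714542, minus strand). Wild-type brainstem held 3 Nr5a1 reads in all, a ratio of 1163 (counting interval 397.7 to 5642), and wild-type cortex 19 reads, a log2 difference of 7.68 (SE 0.26). Rax, a homeodomain factor that persists in tanycytes, was the least abundant member per exon length, at 2.40, 3.29 and 4.78 CPM. Cortex had 0.880% and brainstem 1.34% of its hypothalamic level. Isl1, a LIM homeodomain factor of arcuate neurons, striatal precursors and motor neurons, ranged from 24.2 to 35.0 CPM with a median of 31.2 CPM (chromosome 13, 116298281 to 116309689, minus strand). It kept 1.88% of that level in cortex and 10.6% in brainstem.

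Hmx2 and Hmx3 are neighbouring homeobox genes on the plus strand of chromosome 7 (131548773 to 131558014 and 131542867 to 131544925), whose starts lie 5906 bases apart within the span of Fgfr2 on the opposite strand. Both factors are known from the hypothalamus, where they act on growth hormone-releasing hormone neurons, and from the inner ear. Their areas of detection matched: 0 reads in 12 of 12 cortical libraries for either gene, 2.23 to 3.46 CPM (Hmx2) and 3.95 to 5.69 CPM (Hmx3) in hypothalamus, and in brainstem 11.8% and 12.9% of the hypothalamic level. Hypothalamic levels were at least 187.8-fold (Hmx2) and at least 322.6-fold (Hmx3) higher than in cortex. Over brainstem the log2 differences were 3.17 (SE 0.22) and 3.03 (SE 0.17). Across the 12 hypothalamic libraries the pair was correlated only loosely (r = 0.39, as a description).

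Because this is the only adjoining pair among the members, the bases before the start sites of both are shown, from the RefSeq promoter windows of GRCm38.p6, 5′ to 3′ on the plus strand, with CG dinucleotides in capitals. The Hmx3 stretch is chr7:131542713-131542866 and the Hmx2 stretch, before the first of 2 RefSeq starts, is chr7:131548507-131548756.
Hmx3: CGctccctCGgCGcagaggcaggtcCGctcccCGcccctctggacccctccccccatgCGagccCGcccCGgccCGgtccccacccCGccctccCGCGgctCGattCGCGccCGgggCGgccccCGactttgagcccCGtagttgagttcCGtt
Hmx2: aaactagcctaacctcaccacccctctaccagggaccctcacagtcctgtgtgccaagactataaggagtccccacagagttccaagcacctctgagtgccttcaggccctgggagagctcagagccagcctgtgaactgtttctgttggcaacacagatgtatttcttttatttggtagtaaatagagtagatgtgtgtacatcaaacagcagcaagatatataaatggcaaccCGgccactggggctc
The printed Hmx3 stretch holds 20 CG dinucleotides in 154 bases and the printed Hmx2 stretch 1 in 250 bases. The Hmx3 window overlaps an annotated exon, and its printed stretch stops before the annotated gene start at 131542867, so the stretches are unlike in extent. Over whole windows of 300 bases the counts were 39 for Hmx3, 2 for the first Hmx2 start and 22 for its second start, against a median of 7 over 32851 mouse promoter windows. Of the 10 members 8 had an entry, in 9 windows, and the other windows held between 12 and 37 CG dinucleotides: Nkx2-1 12, Sim1 13, Six3 14, Otp 20, Six6 20 and Isl1 37. Nr5a1 and Rax were not matched. On either strand GGGCGG, the core of a GC box, occurred in 5 of 9 windows (35.66% of all promoter windows), TATAAA in 2 of 9, of Hmx2 and Sim1 (13.62%), and CAAGTG, a site type bound by NKX2 factors, in 0 of 9 (13.56%). These are matches of letters in these windows and say nothing of binding.

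Per kilobase of exon, the wild-type hypothalamic order was Otp (16.85 ± 2.55 CPM per kb, SD, n = 6), Nkx2-1 (10.5 ± 1.84), Isl1 (6.92 ± 0.647), Six3 (5.72 ± 0.688), Nr5a1 (4.42 ± 1.09), Six6 (4.15 ± 1.46), Hmx3 (3.06 ± 0.277), Sim1 (2.38 ± 0.0643), Hmx2 (0.811 ± 0.107) and Rax (0.597 ± 0.162). Otp over Nkx2-1, Nkx2-1 over Isl1, Hmx3 over Sim1 and Sim1 over Hmx2 were steps whose ranges did not overlap. The ranges did overlap between Isl1 and Six3, Six3 and Nr5a1, Nr5a1 and Six6, Six6 and Hmx3, and Hmx2 and Rax. Within single libraries, Nr5a1 exceeded Six6 in 9 of 12 and Six6 exceeded Hmx3 in 7 of 12, so the middle of the order is not settled by these data.

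**Figure D2:**
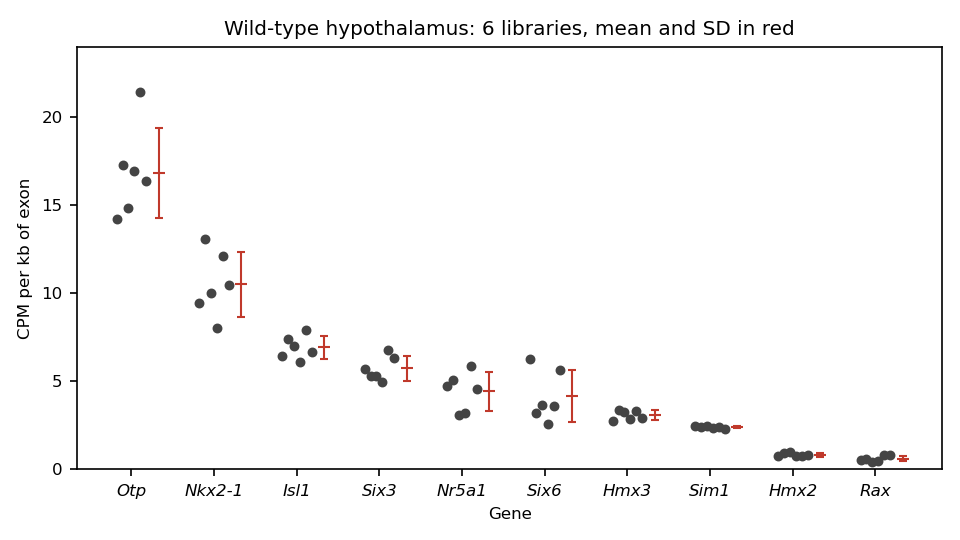
Level per kilobase of exon in the 6 wild-type hypothalamic libraries (grey points, linear axis from 0), with mean and SD in red. Otp and Nkx2-1 stand clear at the top, and Nr5a1, Six6 and Hmx3 overlap.

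Several members share their locus with another transcript, and the strand setting used in counting is not given in the sources used here. Six3os1, the antisense neighbour of Six3, averaged 20.4 CPM in hypothalamus, 0.888 CPM in cortex and 0.0489 CPM in brainstem, the same order of areas as Six3. Reads from such a pair cannot be told apart without strand. The opposite-strand neighbour of Six6, 4930447C04Rik, followed another order, with 33.9 CPM in cortex, where Six6 had a single read in 12 libraries. Nr5a1os, Gm26973 (beside Nkx2-1) and Raxos1 stayed under 0.5 CPM in every area: their hypothalamic means were 0.463, 0.467 and 0.0108 CPM.

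Outside the hypothalamus some members were higher in cortex and others in brainstem, and the share called was near that of all tested genes. Between wild-type cortex and brainstem 3 members were higher in cortex, 5 were higher in brainstem and 2 were not called, at a background of 80.7% of tested genes called (39.4% higher and 41.3% lower in cortex). Six3 was higher in cortex by 4.80 on the log2 scale (SE 0.48, adjusted p = 1.51e-07), as was Nkx2-1 by 1.86 (SE 0.67, adjusted p = 0.0186), at 45 against 11 reads. Nr5a1 gave 19 reads in cortex and 3 in brainstem, a ratio of 5.47 (counting interval 1.61 to 28.85; edgeR adjusted p = 0.0237). Higher in brainstem were Otp, with a cortex minus brainstem log2 difference of -6.86 (SE 0.25), and Isl1, with -2.54 (SE 0.20). Hmx2 was higher there by at least 20.1-fold and Hmx3 by at least 42.1-fold. Sim1 was also higher there, with 16 against 3 reads (ratio 6.18, counting interval 1.77 to 33.1, edgeR adjusted p = 0.0081).

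The sparse calls of that comparison rest on few libraries. Leaving out replicate 3 of the knockout line's wild-type cortex ended the calls of Nkx2-1 (edgeR adjusted p = 0.051) and Nr5a1 (0.0667). Nr5a1 was also lost without ataxin-3 wild-type brainstem replicate 2 (0.052) or replicate 3 (0.0858), and Sim1 without knockout-line wild-type brainstem replicate 2 (0.0786). Rax (7 reads in cortex, 9 in brainstem) and Six6 (0 in both) were not called.

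In cortex the members with reads in every library were Six3 (0.853 to 3.07 CPM, median 1.64), Isl1 (0.184 to 1.05 CPM, median 0.587) and Nkx2-1 (0.0922 to 0.493 CPM, median 0.231). Across the 12 cortical libraries, Six3 was higher where the summed level of 8 striatal neuron genes (Drd1, Drd2, Adora2a, Ppp1r1b, Rgs9, Gpr6, Tac1, Penk) was higher, with r = 0.892 and Spearman rho = 0.916. Without the 2 libraries farthest from the median of that sum, r was 0.829. Isl1 gave r = 0.76 and rho = 0.783 (r = 0.875 without 2 libraries), and Nkx2-1 gave r = 0.537 and rho = 0.483 (r = 0.393 without 2 libraries). In brainstem, Isl1 against 8 cranial motor and cholinergic genes gave r = 0.59 and rho = 0.469 (r = 0.579 without 2 libraries). These 4 relations are descriptions with no test, and the points of each share scaling and depth. With 3 libraries a genotype there are too few to repeat the relation within genotypes. The striatal genes were themselves present in every cortical library, at 208.2 to 410.9 CPM in sum, and their part in the cortical level of Six3 was not tested. The sum does not single out an area: its median was 290.2 CPM in cortex, 288.4 CPM in hypothalamus and 228.8 CPM in brainstem. Much of it comes from Ppp1r1b (wild-type means of 117.8 CPM in cortex and 64.4 CPM in brainstem) and Penk (71.3 and 133.8 CPM).

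**Figure D3:**
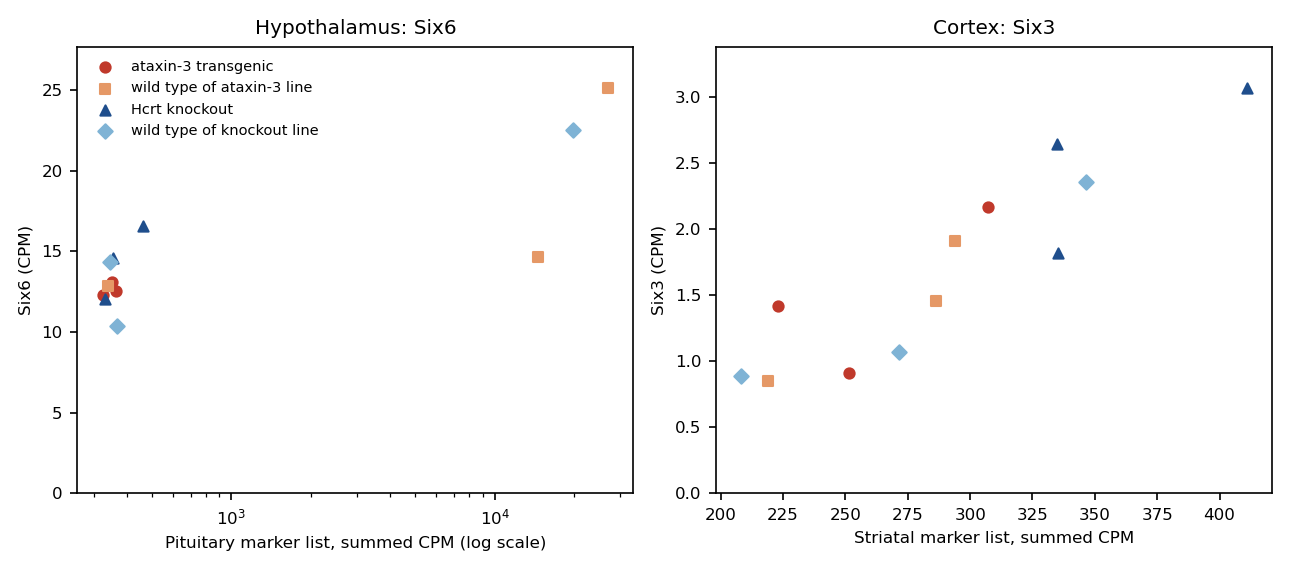
Left, Six6 in the 12 hypothalamic libraries against the summed level of 10 pituitary marker genes (log axis): 3 wild-type libraries stand at 14580 to 26990 CPM on the horizontal axis, and 2 of them have the highest Six6. Right, Six3 in the 12 cortical libraries against the summed level of 8 striatal genes, rising together from 0.853 to 3.07 CPM of Six3.

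None of the 10 factors passed the threshold in the hypothalamus of either model. In ataxin-3 transgenic against wild-type hypothalamus 0 of 10 members were called by edgeR (0.00597% of 16738 genes were), and in knockout against wild type 0 of 10 (0.0119%). DESeq2 and limma voom also called 0 members in each, and at an unadjusted p under 0.05 edgeR gave 1 member in each, Isl1, where 4.16% and 3.89% of all tested genes lay under 0.05. The member median of the log2 difference was 0.05 in the transgenic and 0.08 in the knockout comparison, against 0.01 and 0.01 for all tested genes. The one transcript called in the former, and among the 2 called in the latter, was Hcrt itself.

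Isl1 came nearest to a difference in both models. It measured 31.5, 31.4 and 31.65 CPM in the ataxin-3 transgenic libraries and 25.5, 29.2 and 27.8 CPM in their wild types, which did not overlap. The log2 difference was 0.21 (SE 0.09, 95% interval 0.001 to 0.41, edgeR adjusted p = 1). In the knockout libraries Isl1 stood at 35.0, 31.5 and 31.1 CPM, and in their wild types at 24.2, 31.2 and 26.5 CPM, with 1 knockout value inside the wild-type range. That difference was 0.26 (SE 0.09, interval 0.06 to 0.46, adjusted p = 0.806). Without the 4 libraries that held pituitary or olfactory transcripts the transgenic difference dropped to 0.10, in a fit that left 1 ataxin-3 wild type.

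Six6 had the widest intervals. Its level was 13.1, 12.3 and 12.6 CPM in ataxin-3 transgenic hypothalamus and 25.15, 12.8 and 14.6 CPM in the wild types. The log2 difference was -0.46 (SE 0.30, interval -1.12 to 0.20, adjusted p = 1). Knockout libraries had 16.6, 12.1 and 14.6 CPM and their wild types 10.4, 14.4 and 22.5 CPM, a difference of -0.13 (SE 0.30, interval -0.79 to 0.53). The 3 libraries rich in growth hormone mRNA were wild types, and their Six6 levels were 25.15, 14.6 and 22.5 CPM, against 10.4 to 16.6 CPM (median 12.8) in the other 9. Summed over 10 pituitary genes the same 3 libraries stood at 26990, 14580 and 19910 CPM and the other 9 at 323.9 to 459.5 CPM, a sum that includes Chgb, which neurons also express. Six6 is active in the pituitary as well as the hypothalamus, and the part of pituitary transcripts in these Six6 values was not tested. With the 4 libraries left out, a choice that leaves 1 ataxin-3 wild type whose spread is taken from the other groups, the Six6 differences became -0.06 and 0.21.

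Among the members, only Otp had levels in the growth hormone-rich libraries that did not overlap the rest. They were 41.0 to 47.1 CPM against 48.4 to 65.9 CPM. The share of all tested genes that separate in this way was not computed. Six6 leaned the other way, but its ranges overlapped (14.6 to 25.15 CPM against 10.4 to 16.6 CPM). Otp libraries read 48.4, 51.7 and 54.9 CPM in ataxin-3 transgenic mice and 41.0, 49.8 and 42.7 CPM in their wild types. The log2 difference was 0.22 (SE 0.12, interval -0.04 to 0.49), and it was 0.09 without the 4 libraries. In knockouts Otp was at 65.9, 57.45 and 49.9 CPM and in their wild types at 48.9, 61.75 and 47.1 CPM (0.14, SE 0.12, interval -0.13 to 0.41). The other paraventricular factor, Sim1, differed by 0.02 (interval -0.25 to 0.28) in transgenic and 0.09 (interval -0.18 to 0.36) in knockout hypothalamus. Over the 12 libraries the SD on the log2 scale was 0.371 for Six6, 0.310 for Rax and 0.280 for Nr5a1, and lay between 0.1497 (Sim1) and 0.201 (Otp) for the other 7. Genes at a like level had a median SD of 0.141 beside Six6, 0.231 beside Rax, 0.132 beside Nr5a1, 0.128 beside Sim1 and 0.114 beside Otp.

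**Figure D4:**
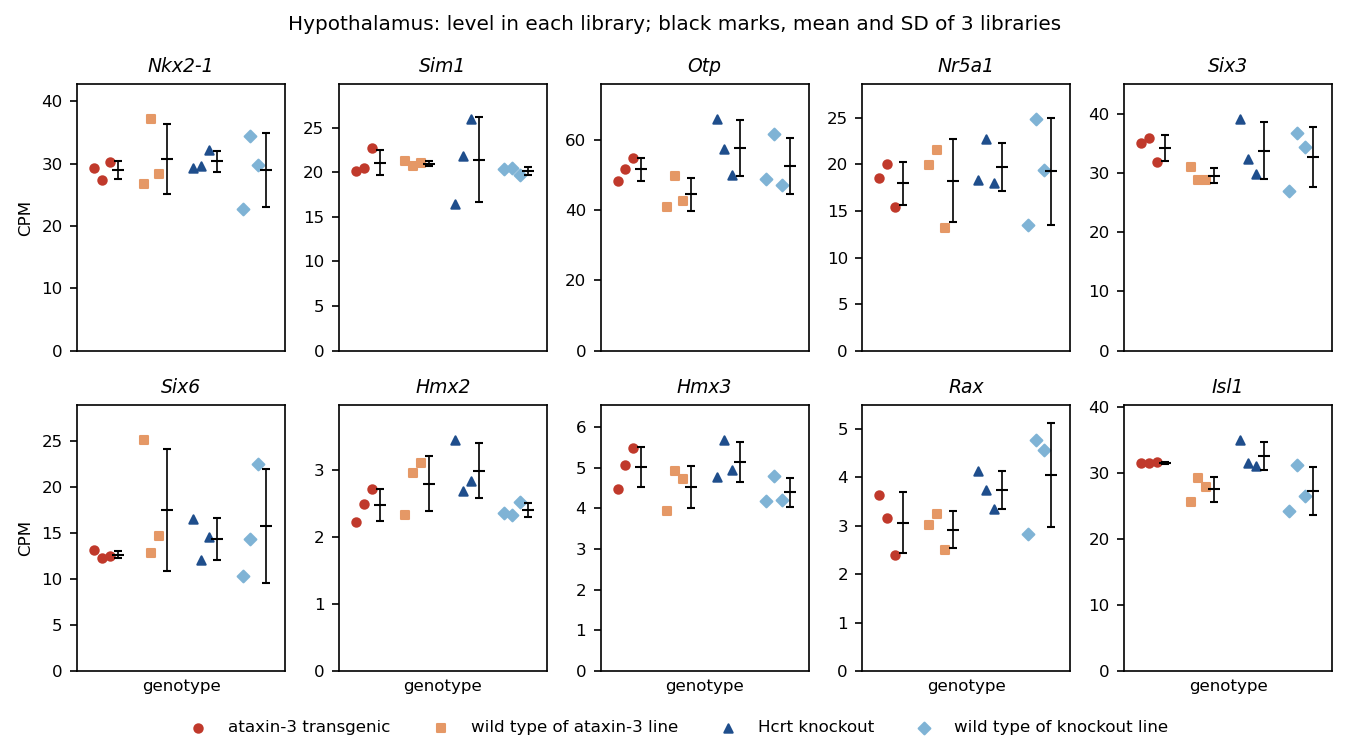
CPM of each gene in the 12 hypothalamic libraries by genotype (axes from 0), with mean and SD of 3 libraries in black. Isl1 and Six3 in ataxin-3 transgenic mice (red) lie above their wild types (light orange), and 2 wild-type libraries carry the 2 highest Six6 values, 25.15 and 22.5 CPM.

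In the hypothalamus 3 members had model and wild-type libraries that did not overlap. Six3 and Isl1 were above in ataxin-3 transgenic mice, as were 4.62% of tested genes, and Hmx2 was above in knockouts, as were 3.84%. In the transgenic comparison a list of 8 meningeal genes also separated, with a summed level of 1110 to 1868 CPM against 345.7 to 1019 CPM and 8 of 8 values above 0. A list of 6 arcuate peptide genes separated the other way (204.5 to 227.7 CPM against 263.8 to 1159 CPM in sum). Those wild types included libraries rich in growth hormone mRNA. Of the thalamic genes 7 of 7 had values below 0, with overlapping sums (377.2 to 403.6 CPM against 392.7 to 453.7 CPM). The share of all tested genes on either side of 0 is not given here. Single broad genes carry much of these sums: Ptgds averaged 598.7 CPM in wild-type hypothalamus and 448.1 CPM in cortex. Slc17a6, of the thalamic list, averaged 334.7 CPM there and 288.3 CPM in brainstem. None of the meningeal, arcuate or thalamic genes passed the edgeR threshold, and their part in the Six3 and Isl1 values was not tested. The highest meningeal sum, 1868 CPM, was that of transgenic replicate 1, the library with olfactory transcripts. Six3 read 35.1, 36.01 and 31.85 CPM in transgenic and 31.1, 28.8 and 28.9 CPM in wild-type libraries (log2 difference 0.22, SE 0.12, interval -0.05 to 0.49, adjusted p = 1). In knockouts its difference was 0.05 (interval -0.22 to 0.32). Hmx2 read 3.46, 2.69 and 2.84 CPM in knockouts and 2.37, 2.34 and 2.53 CPM in their wild types (0.32, SE 0.17, interval -0.04 to 0.68, adjusted p = 0.806). In transgenic mice it pointed the other way, at -0.17 (interval -0.53 to 0.19), and the 2 effects differed by -0.48 (interval -0.99 to 0.03, adjusted p = 0.979). Its neighbour Hmx3 gave 0.15 (interval -0.14 to 0.44) and 0.23 (interval -0.06 to 0.51).

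Nkx2-1, Nr5a1 and Rax completed the set. Nkx2-1 differed by -0.08 (interval -0.39 to 0.24) in transgenic and 0.07 (interval -0.24 to 0.39) in knockout hypothalamus. The first became -0.37 without the 4 libraries. That fit left 1 ataxin-3 wild type, replicate 2, the highest hypothalamic library for Nkx2-1 (37.1 CPM). Nr5a1 differed by -0.01 (interval -0.51 to 0.49) and 0.04 (interval -0.45 to 0.53). Rax differed by 0.08 (interval -0.41 to 0.57) and -0.11 (interval -0.59 to 0.37), with -0.25 for the first in the same fit without the 4 libraries. An ependymal list of 7 genes did not overlap in the transgenic comparison (64.45 to 96.8 CPM in sum against 48.6 to 55.5 CPM). Its highest sum was that of transgenic replicate 1, the library with olfactory transcripts, and the other transgenic sums were 64.45 and 65.89 CPM. A tanycyte list of 11 genes ran from 248.8 to 353.2 CPM against 213.8 to 266.3 CPM in that comparison, with overlap. In knockouts the tanycyte sum was lower without overlap, at 270.0 to 282.9 CPM against 287.9 to 321.7 CPM. The sum is not particular to hypothalamus: its median was 276.2 CPM there and 345.5 CPM in cortex. The part of these lists in the Rax values was not tested.

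**Figure D5:**
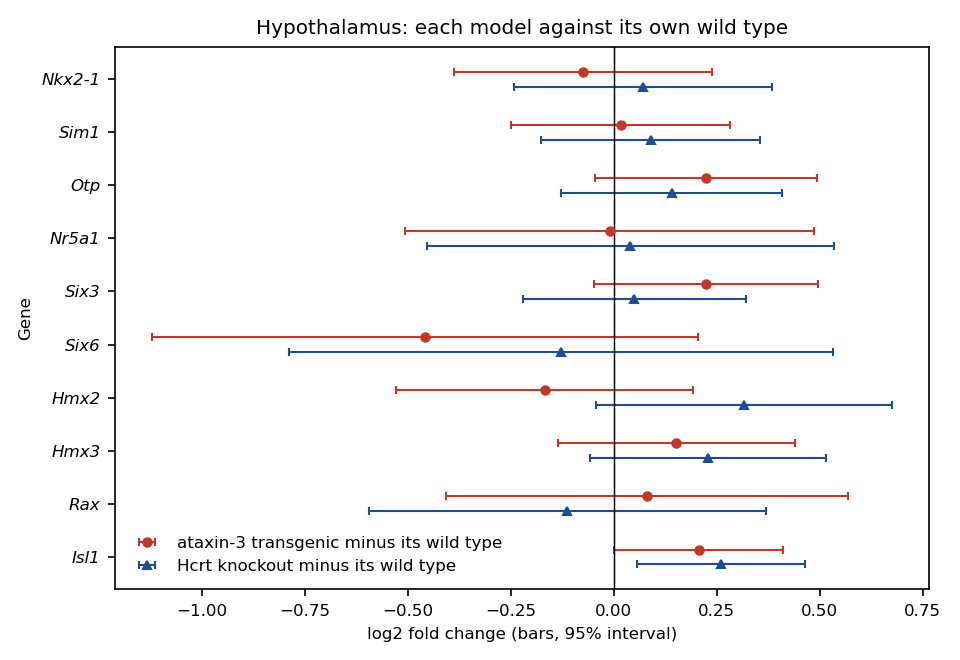
Log2 fold change of each gene in ataxin-3 transgenic (red circles) and knockout (blue triangles) hypothalamus against its own wild type, with 95% intervals from edgeR. All intervals include 0 except those of Isl1, which start at 0.001 and 0.06, and the interval of Six6 in transgenic mice is the widest, from -1.12 to 0.20.

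The direct test of whether the models differed, ataxin-3 effect minus knockout effect, called 0 of 10 members (0.0% of all genes), as did DESeq2 and limma voom, with 0 members at an unadjusted p under 0.05 (2.26% of all tested genes). The wild types of the lines also differed at 0 of 10 members (0.0%), again with 0 by either other tool and 0 at an unadjusted p under 0.05 (2.29%). Rax was the farthest apart there: 3.02, 3.24 and 2.51 CPM in the ataxin-3 line and 2.82, 4.78 and 4.56 CPM in the knockout line, a log2 difference of -0.47 (interval -0.96 to 0.02, adjusted p = 1).

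Outside the hypothalamus only members above the filter on low counts could be tested, 3 in cortex and 4 in brainstem. In cortex 0 of 3 were called in transgenic (0.0% of 16479 genes) and in knockout mice (0.0789%, of which 0.0546% lower and 0.0243% higher), in their difference (0.0243%) and between wild types (0.0%). Nkx2-1 was the one member with separated libraries, at 0.344, 0.264 and 0.389 CPM in knockout and 0.137, 0.154 and 0.230 CPM in wild-type cortex, as were 5.1% of tested genes in that direction. Those values are 14, 6 and 10 against 4, 5 and 9 reads, and the log2 difference was 0.90 (SE 0.54, interval -0.26 to 2.07, adjusted p = 1). Six3 was at 1.82, 2.64 and 3.07 CPM in knockout and 2.36, 0.891 and 1.07 CPM in wild-type cortex (0.80, interval -0.06 to 1.66, adjusted p = 1). The striatal list was at 334.8 to 410.9 CPM in the same knockout libraries and 208.2 to 346.6 CPM in the wild types.

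In brainstem 0 of 4 members were called in transgenic (0.00606% of 16493 genes) and in knockout mice (0.0728%, with 0.0485% lower), in their difference (0.0%) and between wild types (0.0%). DESeq2 and limma voom called 0 members in every cortical and brainstem comparison. At an unadjusted p under 0.05 edgeR gave Otp in the brainstem knockout comparison (3.24% of all tested genes) and Hmx3 between brainstem wild types (14.9%), and 0 members in the other 6 comparisons of these areas (3.13% to 8.35%). Otp read 8.001, 11.02 and 11.3 CPM in knockout and 7.92, 7.73 and 8.62 CPM in wild-type brainstem, overlapping through 1 knockout library (log2 difference 0.32, SE 0.13, interval 0.04 to 0.61, adjusted p = 1). Hmx3 read 0.387, 0.647 and 0.284 CPM in the ataxin-3 wild types, from 10, 12 and 10 reads, and 0.535, 0.732 and 0.875 CPM in the wild types of the knockout line (-0.81, SE 0.33, interval -1.51 to -0.11, edgeR adjusted p = 0.272). Replicates 1 and 2 of the ataxin-3 wild types had the fewest gene-assigned reads in brainstem, 27137630 and 21915540. Their part in the Hmx3 difference was not tested. Isl1 gave 2.37 to 3.20 CPM over all 12 brainstem libraries, and its summed companions, 8 cranial motor and cholinergic genes, 148.4 to 195.4 CPM. Among the untested members Sim1 was uneven, with 14 and 15 reads in transgenic brainstem replicates 1 and 3 and at most 5 elsewhere.

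Other hypothalamic transcription factors were also mostly higher in hypothalamus. Of 33 listed, 32 were tested, and 26 were higher, 5 lower and 1 not called in wild-type hypothalamus against cortex (median log2 difference 3.10, against 0.03 for all genes). Against brainstem 24 were higher, 5 lower and 3 not called (median 2.76). The calls with the smallest p over cortex included Nhlh2, a bHLH factor (5.76 on the log2 scale), and Lhx5, a LIM homeodomain factor (7.93), and those over brainstem Dlx6 (8.94) and Vax1 (6.44), homeodomain factors of the anterior forebrain. None of the 32 was called in either model's hypothalamus by edgeR, with 1 and 0 at an unadjusted p under 0.05 (4.16% and 3.89% of all tested genes). Genes of the nuclei that the members mark were less uniform against cortex, where 40.4% of all tested genes were higher and 38.3% lower in hypothalamus. Of 5 paraventricular peptide genes 3 were higher, including Oxt (10.13 on the log2 scale) and Avp (10.48), and 2 were not called, Crh at -0.45 and Sst at 0.04. Of 6 arcuate peptide genes 5 were higher, including Ghrh (8.31), and Npy was lower (-1.07). Of 7 suprachiasmatic genes 5 were higher and 2 lower, and of 6 ventromedial genes 5 were higher, including Fezf1 (7.90), and 1 was lower. Of 11 tanycyte genes 5 were higher, including Gpr50 (6.94), and 5 lower, including Lhx2 (-2.59), which cortical neurons also express, shares near those of all genes. In either model's hypothalamus 0 of 5 paraventricular, 0 of 6 arcuate, 0 of 7 suprachiasmatic, 0 of 6 ventromedial and 0 of 11 tanycyte genes were called by edgeR.

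For each member the genes most alike across the 12 hypothalamic libraries were found by Pearson r of log2 CPM among 13552 genes, as a description that shares libraries, depth and scaling and carries no test. Nkx2-1 was closest to the homeobox gene Irx3 (r = 0.931) and to Adcyap1, the PACAP precursor (0.89). Nr5a1 was closest to Mfap2 (0.932) and Nr0b1, another nuclear receptor gene of steroidogenic tissue (0.882). Isl1 stood beside Mrpl23 (0.905), Brs3, an orphan bombesin receptor (0.899), and Chodl (0.899). Six6 was closest to Efcab1 (0.942), Aga (0.942) and Fkbp11 (0.939). Without the 3 growth hormone-rich libraries those 3 values were 0.93, 0.74 and 0.782. Otp was nearest to Pltp (0.941), Rax to Lgals3bp (0.924), Sim1 to Cul4b (0.923), Hmx2 to Zfp566 (0.909), Hmx3 to Ttll1 (0.88) and Six3 to Anxa7 (0.863). Among the members themselves 45 pairs had a median r of 0.282 (range -0.567 to 0.744), the highest between Otp and Isl1 and the lowest between Six6 and Hmx3. Several of these values rest on the same 3 libraries: without them Otp and Isl1 gave 0.602, Six6 and Hmx3 0.108, Six6 and Isl1 0.802 (from -0.252), and Otp and Six6 0.614 (from -0.347).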

How the data were processed

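Poly(A) RNA libraries (TruSeq Stranded mRNA, per the labels' protocols) from 3 brain areas and 4 genotypes gave 36 deposited tables of raw read counts per Ensembl gene. Reads were trimmed with cutadapt 1.2.1, aligned to GRCm38 with TopHat2 2.0.9 and counted by the authors with HTSeq 0.5.4p3, per the submitters' processing notes. No source used here names the annotation release, the overlap mode or whether counting used strand, so reads of overlapping genes may be split or lost. The 5 summary lines that name no gene (24.7% to 42.0% of each table's total) were left out. Identifiers were matched to symbols and positions in GENCODE M21 (37607 of 38924).

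Counts were tested in edgeR 4.0.16 (limma 3.58.1, R 4.3.3) with TMM scaling, filterByExpr, the quasi-likelihood test and Benjamini-Hochberg adjustment over all tested genes at 0.05. Genotypes were compared within each area's 12 libraries, and areas over the 18 wild types with the lines averaged. Alternatives were DESeq2 1.42.0, limma voom with quality weights, other scaling and filters, a replicate block, fits of fewer or more libraries and leaving out each library. Scripts were tested on simulated data. No pair of libraries of a group agreed within sampling noise (lowest chi-square per degree of freedom 2.37). Members and gene lists were chosen with earlier results of these data known, and 1 item of a list is not reported here. The text names the 10 members, up to 4 genes of each list by smallest p, and up to 3 genes most alike per member.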

Additional observations from a re-analysis of the deposited data

Results flagged for a closer look

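Among 23 sets of 6 wild-type libraries, 3 held a value that lay far from the other 5, by a gap of over 0.625 of the whole range. Chance alone gives about 5% of such sets for continuous, normally distributed values. A share for read counts as low as these was not computed. Nkx2-1 in cortex was 0.4925 CPM (17 reads) in ataxin-3 wild type replicate 1, and 0.230 CPM in the next highest library. Six3 in brainstem was 0.1548 CPM (4 reads) in ataxin-3 wild type replicate 1, and 0.0539 CPM in the next, where it and the rest held 1 read each. Hmx2 in brainstem was 0.6473 CPM (12 reads) in ataxin-3 wild type replicate 2, and 0.31 CPM in the next. Both brainstem values come from the brainstem libraries with the fewest gene-assigned reads.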

How the results depend on the processing

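The number of members called kept its value within 1.5 times in 242 of 242 alternatives computed, and it was 0 in 179 of 179 alternatives of the 12 genotype comparisons. Between cortex and brainstem, 8 members were called, 6 with limma voom (without Nkx2-1 and Nr5a1), and 6 to 8 when 1 library was left out. Single member values kept their direction and side of the threshold, or moved by less than 1 SE, in 1584 cases, moved by more in 39 uncalled cases, and lost a call in 7, all between cortex and brainstem. No called value was reversed. Counts over all genes moved by over 1.5 times in 63 of 242 alternatives. For ataxin-3 wild-type against knockout-line wild-type brainstem, edgeR called 0 genes and 1177 without ataxin-3 wild type replicate 3, and DESeq2 called 286. The ataxin-3 wild types then left, replicates 1 and 2, had 10.12% and 15.18% of their totals in reads assigned to no gene feature. The other brainstem libraries had 6.38% to 7.33%. The part of this in the counts was not tested. For the difference between the models, fitting only the groups compared is the fit already used.

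Same-numbered libraries did not deviate together in every comparison (correlations from -0.328 to 0.388), and the labels state no pairing. The replicate numbers were therefore not taken to pair samples. Between ataxin-3 transgenic and wild-type hypothalamus the correlations were 0.388, 0.261 and 0.051, and 5 of 6 libraries correlated best with their own number. As a hint from the data, all 6 libraries correlated best with their own number between ataxin-3 wild-type hypothalamus and either other area, and 0 to 5 of 6 did in the other 10 comparisons. With a replicate block, 0 members were called in the genotype comparisons, and genes called went from 2 to 1 in knockout hypothalamus, from 13 to 8 in knockout cortex and from 0 to 3 between cortical wild types. Members under 1 CPM outside the hypothalamus rest on few reads, and genotype differences there could not be detected unless large.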
